A study of Ictidomys tridecemlineatus with 15 samples.

Results

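Immediate early genes are switched on within minutes of a signal at the cell surface or of a stress, from promoters that are already accessible and without new protein synthesis. Growth factor, cytokine and stress signals reach them through MAP kinase cascades and factors such as SRF, the ternary complex factors and CREB. Most of their products are transcription factors or feedback regulators with short lives, and in the liver they are known for their induction after partial hepatectomy, refeeding and tissue injury.

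The transcription of 10 such genes was followed in ground squirrel liver: Fos, Jun, Junb, Egr1, Atf3, Ier2, Klf6, Myc, Btg2 and Dusp1. They were found by symbol among 6324 transcription units, 4705 of them named for 1 gene only. Egr1, Dusp1, Jun, Myc, Klf6, Atf3 and Btg2 each had a unit of their own, which gives 7 single-gene members. Ier2 lies in a unit named Ier2:IER2 and Junb in one named Rnaseh2a:Junb, and since overlapping genes were merged there, the counts of these 2 units cannot be divided among their genes. No unit carries the name of Fos. Counts of members below refer to the 7 single-gene units, and the 2 merged units are described beside them.

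Global run-on sequencing (GRO-seq) extends the RNA of polymerases already engaged on DNA in isolated nuclei. Its reads therefore count engaged polymerases able to elongate rather than RNA that has accumulated. It was applied to liver nuclei of female 13-lined ground squirrels, a hibernator whose body cools close to ambient temperature in torpor and rewarms at intervals. The study proposes that in torpor polymerases elongate very slowly and neither initiate nor terminate. For some genes it also proposes that polymerases still initiated between torpor entrance and early torpor. In every state the levels reflect engaged polymerases, and on the first proposal those in cold animals cannot be read as rates of transcription. Each of the 14 libraries came from 1 animal, and total counts ranged from 3713883 to 8884763.

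The summer active animals (SA, n = 3) were warm and outside the hibernation season, and the other 4 states came from the hibernation season. The interbout aroused animals (IBA, n = 3) had rewarmed spontaneously between torpor bouts, the animals entering torpor (Ent, n = 3) were cooling, and the early torpor (ET, n = 3) and late torpor (LT, n = 2) animals were cold, near the beginning and near the end of a bout. All animals were laboratory-housed and no drug or diet treatment is named. The labels describe implanted temperature sensors, and the study's methods name a rectal probe as well. LT replicate 2 was not used here. The animals came from 3 collection seasons. The ET animals were of a season shared with no other state, so season and state cannot be told apart in comparisons with ET. The LT animals were of the first season and the IBA animals of the third, whereas SA and Ent held animals of both.

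Levels are given as CPM, the counts of a unit scaled to the TMM-normalized size of its library, with the SD over animals. They are relative to the other units of the library, and so are all rises and falls below. The study states that scaling to library size hides changes in total transcription between states. Scaling to mapped reads, given below as an alternative, is also relative to the library. Differences are log2 fold changes with their standard error (SE) from one edgeR quasi-likelihood fit of the 5 states, and p-values were adjusted by the Benjamini-Hochberg method across the whole table of units. A call is an adjusted p of at most 0.05, and alternatives named below are read at that level unless 0.001 is named. Of the 7 members, 4 differed among the 5 states at this level, Egr1, Myc, Atf3 and Dusp1, against 63.3% of all single-gene units. At the stricter level of 0.001, none of the 7 passed in that test, against 26.4% of all single-gene units, and the lowest adjusted p of a member was 0.00122, for Myc. The 4 members followed different courses over the torpor cycle, as the plot of single libraries shows. Egr1 and Dusp1 were low in the cold states, Myc was high in IBA and Ent, and Atf3 was low in those states.

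**Figure D1:**
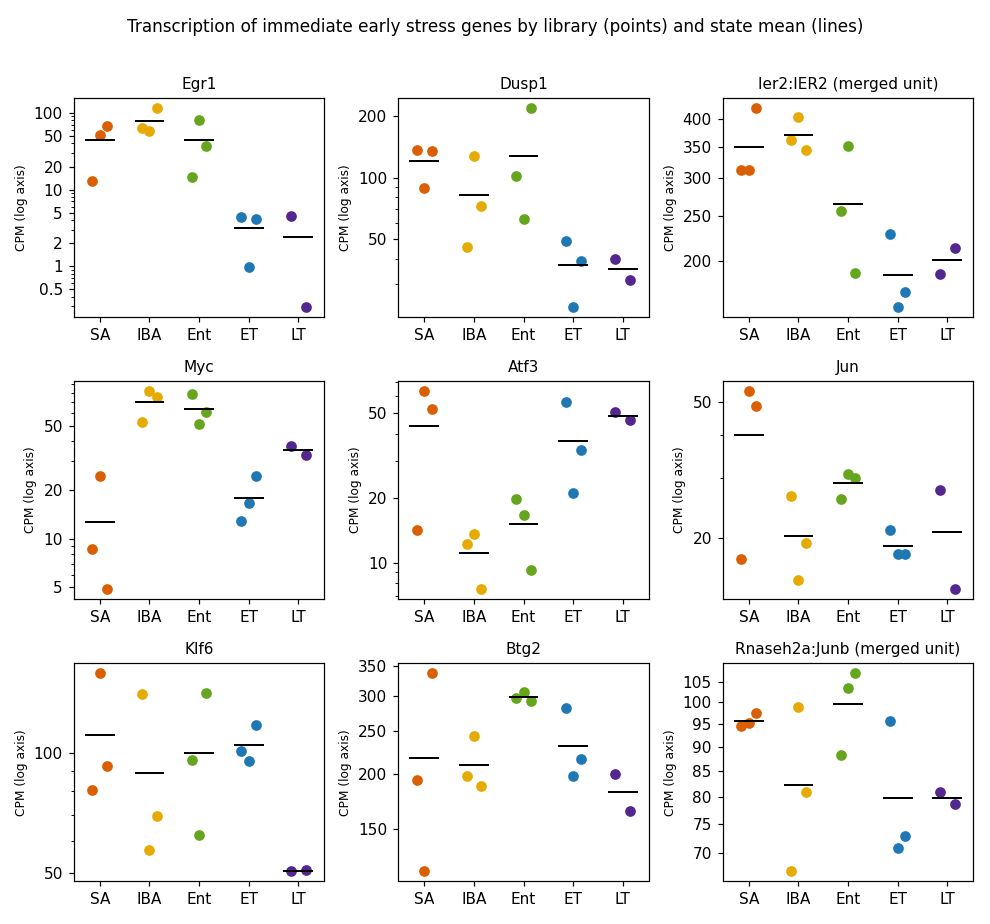
Level of each member unit in CPM, on a log10 axis, in the 14 libraries by state, with 1 point per animal and a bar at the mean of each state. The ET and LT points of Egr1 lie between 0.295 and 4.53 CPM, below all 9 points of SA, IBA and Ent.

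Most hepatocyte markers were lower in the cold libraries as well. Of 10 hepatocyte markers, 7 had a unit of their own, none of them at 0, and their summed level ran from 8768 to 20740 CPM over the SA, IBA and Ent libraries and from 3792 to 7161 CPM over those of ET and LT. Between cold and warm animals 6 of the 7 were called lower, against 35% of all single-gene units, of which 65.1% were called in either direction. The exception was Apob, one of the largest contributors to the sum (log2 fold change -0.23, edgeR adjusted p = 0.218), with means of 3228 CPM in SA and 3781 CPM in LT. Of 10 liver endothelial markers, 4 had such a unit, and their sum ran from 210.9 to 265.6 CPM in SA, IBA and Ent and from 140.2 to 219.9 CPM in ET and LT. Of these 4, 3 were called lower in the cold, against the same 35% of all units. Stab1 had 0.39 (edgeR adjusted p = 0.0668), or 0.61 with scaling to mapped reads (edgeR adjusted p = 0.00658). The 1 cholangiocyte marker with a unit of its own, Sox9, ran from 16.5 to 46.1 CPM in SA, IBA and Ent and from 7.07 to 18.1 CPM in ET and LT. No Kupffer cell, stellate cell or blood leukocyte marker had a single-gene unit. The part of these differences in the results below was not tested, and in bulk nuclei fewer cells of a type and less transcription per cell cannot be told apart.

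Egr1, a zinc finger transcription factor induced through SRF and the ternary complex factors, showed the widest differences of the members. Its unit covers 5727 nt on the minus strand of Itri1 in HiC_Itri_2, from 153979542 to 153985268. The SA libraries held 12.8, 51.7 and 67.6 CPM, the IBA libraries 64.5, 58.7 and 114 CPM, and the Ent libraries 14.5, 81.0 and 36.9 CPM. The ET libraries held 4.42, 0.982 and 4.15 CPM and the LT libraries 4.53 and 0.295 CPM. Every cold library therefore lay below every SA, IBA and Ent library, while the 3 libraries of SA and of Ent each spread over a several-fold range. At these low levels the depth limits precision. LT replicate 3 had 2 counts, for which an exact Poisson 95% interval runs from 0.0357 to 1.06 CPM, and ET replicate 2 had 5 counts, with an interval from 0.319 to 2.29 CPM. These intervals cover counting error only.

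Averaged over ET and LT, Egr1 was 21.0-fold lower than over SA and IBA (log2 fold change -4.39, SE 0.69, edgeR adjusted p = 0.000116). This comparison of cold with warm animals was past the threshold under all 23 alternatives that could be run on Egr1, with log2 fold changes from -5.86 to -3.94. None of these 23 adjusted for collection season, which was not fitted in this comparison. From Ent to ET, Egr1 fell (log2 fold change -3.74, SE 0.85, edgeR adjusted p = 0.00664), and from LT to IBA it rose (5.04, SE 1.07, edgeR adjusted p = 0.00196). No difference was detected between SA and IBA (0.84, SE 0.71, edgeR adjusted p = 0.541), between IBA and Ent (-0.85, SE 0.71, edgeR adjusted p = 0.437) or between ET and LT (-0.44, SE 1.08, edgeR adjusted p = 0.971). The last 2 values moved with single libraries: that between IBA and Ent was -1.62 without Ent replicate 2, and that between ET and LT was -3.38 without LT replicate 1 and 0.47 without LT replicate 3. The called changes moved as well. The change from Ent to ET was -2.95 without Ent replicate 2 (edgeR adjusted p = 0.0270). Without LT replicate 1, where LT rests on the library with 2 counts, the change from LT to IBA was 7.98 (edgeR adjusted p = 0.00559; 4.12 without LT replicate 3, edgeR adjusted p = 0.0221), that from Ent to LT -7.13 and that between cold and warm -5.86. From Ent to LT, Egr1 fell by 4.19 on the log2 scale (SE 1.04, edgeR adjusted p = 0.0110), but not past the threshold without LT replicate 3 (-3.27, edgeR adjusted p = 0.0783). That change was -3.39 without Ent replicate 2 (edgeR adjusted p = 0.0315), and -4.30 within the first collection season, in 2 Ent and 2 LT animals (edgeR adjusted p = 0.0394). With season as a covariate the change from LT to IBA was 4.19 (edgeR adjusted p = 0.0330).

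Dusp1, a dual-specificity phosphatase that inactivates MAP kinases and so limits the response that induces it, was also low in cold animals, over a narrower range. Its unit runs from 93966097 to 93970466 on Itri1, plus strand. Its level was 137, 89.1 and 135 CPM in the SA libraries, 45.8, 128 and 72.8 CPM in IBA, and 102, 62.6 and 219 CPM in Ent. In ET it was 49.0, 23.2 and 39.1 CPM and in LT 40.1 and 31.5 CPM. All cold libraries lay below those of SA and Ent, but the lowest IBA library fell within the range of ET. Between cold and warm animals the log2 fold change was -1.45 (SE 0.35, edgeR adjusted p = 0.00290), and it remained significant under every alternative tried, none of which adjusted for season.

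From Ent to ET, Dusp1 fell by 1.78 on the log2 scale (SE 0.46, edgeR adjusted p = 0.0129), and the change from Ent to LT was -1.83 (SE 0.54, edgeR adjusted p = 0.0235). Both rest on Ent replicate 3, the highest library of all, without which the changes were -1.14 (edgeR adjusted p = 0.0586) and -1.20 (edgeR adjusted p = 0.0762). The change from Ent to LT also missed the threshold without LT replicate 1 (edgeR adjusted p = 0.111) or LT replicate 3 (edgeR adjusted p = 0.137). Within the first collection season, which does not hold Ent replicate 3 either, it was -1.20 and passed (edgeR adjusted p = 0.0275). With season as a covariate it was -1.54 (edgeR adjusted p = 0.0562). From LT to IBA the log2 fold change was 1.20 (SE 0.52, edgeR adjusted p = 0.0729), with no overlap between the groups. It passed without IBA replicate 1 (edgeR adjusted p = 0.0389) and without Ent replicate 3 (edgeR adjusted p = 0.0349). With season as a covariate it was 0.63 (edgeR adjusted p = 0.481), and the LT and IBA animals were of different seasons.

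The unit Ier2:IER2, named for a short-lived nuclear protein of the immediate early response, was lower in the cold by a smaller factor. It spans 41286 nt on the minus strand of Itri2, from 208136101 to 208177386. The levels were 312, 312 and 422 CPM in SA, 362, 405 and 345 CPM in IBA, and 255, 351 and 189 CPM in Ent. They were 229, 160 and 172 CPM in ET and 188 and 214 CPM in LT, so that the cold libraries lay below all of SA and IBA and overlapped with Ent. Between cold and warm animals the log2 fold change was -0.89 (SE 0.16, edgeR adjusted p = 0.000413), significant under every alternative tried, none of which adjusted for season. From LT to IBA it was 0.88 (SE 0.25, edgeR adjusted p = 0.0101), or 0.79 without LT replicate 1 (edgeR adjusted p = 0.0832). The change from Ent to ET was -0.50 (SE 0.22, edgeR adjusted p = 0.0972), and passed the threshold without Ent replicate 3 (edgeR adjusted p = 0.0249). The change from IBA to Ent was -0.48 (SE 0.21, edgeR adjusted p = 0.138), and passed without Ent replicate 2 (edgeR adjusted p = 0.0488).

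Myc, the transcription factor that drives ribosome production and growth, was high in IBA and Ent and low in SA and ET. It lies on the minus strand of Itri6, from 13052568 to 13059356. The SA libraries held 8.68, 24.5 and 4.87 CPM, the IBA libraries 52.9, 82.1 and 75.0 CPM, and the Ent libraries 78.3, 50.8 and 60.3 CPM. Levels in ET were 12.8, 16.5 and 24.3 CPM and in LT 37.6 and 32.7 CPM. All IBA and Ent libraries thus lay above all others, and the 2 LT libraries lay between them and those of SA and ET.

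Myc rose from SA to IBA by a log2 fold change of 2.53 (SE 0.46, edgeR adjusted p = 0.00847), and was also higher in Ent than in SA (2.38, SE 0.46, edgeR adjusted p = 0.00450). Between IBA and Ent no difference was detected (-0.15, SE 0.42, edgeR adjusted p = 0.840). From Ent to ET it fell by 1.82 (SE 0.44, edgeR adjusted p = 0.00923), and this change passed the threshold under every alternative tried, none of which adjusted for season. In the remaining steps, from ET to LT (0.98, SE 0.48, edgeR adjusted p = 0.607) and from LT to IBA (0.996, SE 0.49, edgeR adjusted p = 0.106), the groups did not overlap but the test was not passed. The step from LT to IBA passed without SA replicate 2 (edgeR adjusted p = 0.0185) or SA replicate 3 (edgeR adjusted p = 0.0465), neither of which enters that comparison except through the shared fit. It also passed in limma-voom (limma adjusted p = 0.0249) and with LT and IBA fitted alone (edgeR adjusted p = 0.00852), and so in 4 of 25 alternatives. With season as a covariate this step was 0.77 (edgeR adjusted p = 0.428). Without SA replicate 2, the highest of SA, the rise from SA to IBA was 3.42 (edgeR adjusted p = 0.00113) and that from SA to Ent 3.27 (edgeR adjusted p = 0.000505). Within the third collection season, 2 SA against 3 IBA animals gave 2.35 (edgeR adjusted p = 0.114). Between the cold and warm means no difference was detected (-0.22, SE 0.33, edgeR adjusted p = 0.576).

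Atf3, a bZIP factor induced by amino acid shortage, endoplasmic reticulum stress and injury that mostly represses its targets, was low in the states where Myc was high. It lies on the minus strand of Itri9, from 63667974 to 63681906. Levels were 14.2, 63.8 and 52.6 CPM in SA, 12.2, 13.6 and 7.50 CPM in IBA, and 19.8, 16.6 and 9.19 CPM in Ent. They were 56.5, 21.2 and 33.7 CPM in ET and 50.8 and 46.4 CPM in LT. All ET and LT libraries lay above all those of IBA and Ent, while SA replicate 1 lay among the low ones and the other SA libraries among the high ones.

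From LT to IBA, Atf3 fell by 2.14 on the log2 scale (SE 0.55, edgeR adjusted p = 0.00638), and this was significant under every alternative tried. The remaining calls were close to the threshold. Atf3 was lower in IBA than in SA (-1.98, SE 0.52, edgeR adjusted p = 0.0438), but in 10 of the 14 fits that left out 1 library (any of SA replicates 2 and 3, IBA replicates 1 to 3, Ent replicates 1 and 2, ET replicate 3 and LT replicates 1 and 3) adjusted p ran from 0.0528 to 0.168. It was lower in Ent than in SA (-1.52, SE 0.49, edgeR adjusted p = 0.0430), but not past the threshold without any 1 of SA replicates 2 and 3, IBA replicates 1 to 3, Ent replicates 1 to 3, ET replicate 3 or LT replicates 1 and 3 (edgeR adjusted p from 0.0520 to 0.142). It was higher in LT than in Ent (1.67, SE 0.53, edgeR adjusted p = 0.0345), but the call was lost without any 1 of the 3 Ent or 2 LT libraries (edgeR adjusted p from 0.0514 to 0.147). Within single seasons the change from SA to IBA was -2.40 (2 against 3 animals, edgeR adjusted p = 0.0256) and that from Ent to LT 1.41 (2 against 2 animals, edgeR adjusted p = 0.0109). With season as a covariate the change from SA to Ent was -1.17 (edgeR adjusted p = 0.224). In ET against Ent the groups did not overlap and the log2 fold change was 1.29 (SE 0.49, edgeR adjusted p = 0.0662), which passed without SA replicate 1 (edgeR adjusted p = 0.0206) or ET replicate 2 (edgeR adjusted p = 0.0432). It also passed with scaling to mapped reads (1.40, edgeR adjusted p = 0.0398) and in DESeq2 (1.31, DESeq2 adjusted p = 0.0267). Between cold and warm animals it was 0.96 (SE 0.36, edgeR adjusted p = 0.0349), and adjusted p ran from 0.0509 to 0.0933 without IBA replicate 1, IBA replicate 3, ET replicate 1, LT replicate 1 or LT replicate 3.

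No call was made for Jun, Klf6 and Btg2 in any comparison. Jun, the AP-1 subunit that forms dimers with Fos proteins (Itri11, from 72376899 to 72381583, minus strand), ran from 14.1 to 53.9 CPM over all libraries. Its mean was 40.0 ± 19.8 CPM in SA (SD, n = 3) and 28.9 ± 2.57 CPM in Ent (SD, n = 3). The other states averaged 18.9 ± 1.84 CPM (ET; SD, n = 3), 20.3 ± 5.75 CPM (IBA; SD, n = 3) and 20.8 ± 9.46 CPM (LT; SD, n = 2). Here the outcome moved with single libraries. Without SA replicate 1, the lowest of SA, Jun was lower in IBA than in SA (-1.35, edgeR adjusted p = 0.0180) and lower in the cold than in the warm (-0.69, edgeR adjusted p = 0.0103). With all libraries these values were -0.99 (SE 0.37, edgeR adjusted p = 0.139) and -0.52 (SE 0.28, edgeR adjusted p = 0.120). The difference between cold and warm also passed without LT replicate 1 (-0.80, edgeR adjusted p = 0.0487).

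Klf6, a zinc finger factor of the KLF family induced in liver injury (Itri9, from 34305726 to 34317359, plus strand), ran from 50.5 to 158 CPM. Both LT libraries, at 50.5 and 51.0 CPM, lay below every other library. Even so, the change from ET to LT was -1.04 (SE 0.41, edgeR adjusted p = 0.469) and that from LT to IBA 0.80 (SE 0.41, edgeR adjusted p = 0.121). Btg2, an antiproliferative protein that recruits the CCR4-NOT deadenylase (Itri9, from 72061984 to 72079421, minus strand), ran from 120 to 338 CPM. The Ent libraries were the most alike, at 297, 305 and 292 CPM, and lay above all IBA, ET and LT libraries but within the range of SA. The changes were 0.51 from IBA to Ent (SE 0.28, edgeR adjusted p = 0.233) and -0.36 from Ent to ET (SE 0.28, edgeR adjusted p = 0.355). That from Ent to LT was -0.71 (SE 0.32, edgeR adjusted p = 0.119). It passed without SA replicate 2 (edgeR adjusted p = 0.0350) or SA replicate 3 (edgeR adjusted p = 0.0307), the lowest and the highest library of SA. It also passed with Ent and LT fitted alone (edgeR adjusted p = 0.0176) and within the first collection season (-0.72, edgeR adjusted p = 0.0218), and so in 4 of 26 alternatives. With season as a covariate it was -0.68 (edgeR adjusted p = 0.169). Without SA replicate 3, Btg2 was higher in Ent than in SA (0.92, edgeR adjusted p = 0.0184).

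The unit Rnaseh2a:Junb, which joins the AP-1 subunit Junb with a subunit of ribonuclease H2, varied least. It lies on the minus strand of Itri2, from 208442864 to 208463562. All libraries held between 67.1 and 107 CPM, and the 3 SA libraries lay within 94.5 to 97.4 CPM. The difference between cold and warm animals was -0.15 (SE 0.12, edgeR adjusted p = 0.276), and no call was made for it in any comparison.

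Step by step around the torpor cycle, few members changed, as the plot of log2 fold changes at each step through the bout shows. From SA to IBA, 1 of 7 rose (Myc) and 1 fell (Atf3), against 5.57% of all single-gene units called, 2.7% higher and 2.87% lower. From IBA to Ent 0 of 7 passed, against 16.7% of all units, and 0 had an unadjusted p under 0.05 in edgeR or a call in DESeq2 or limma-voom. From Ent to ET 3 of 7 fell (Egr1, Dusp1 and Myc) and edgeR called none higher, against 29.2% of all units called, 15.4% higher and 13.8% lower. With DESeq2 or with scaling to mapped reads, Atf3 was called higher in that step as well. From ET to LT 0 of 7 passed, against 0.34% of all units. In that step 1 member, Klf6, had an unadjusted p under 0.05 in edgeR, and DESeq2 and limma-voom called 0. From LT to IBA 1 of 7 rose (Egr1) and 1 fell (Atf3), against 50.7% of all units called, 26.6% higher and 24.1% lower. The steps share their states, so that, for example, the same IBA libraries enter both neighbouring steps.

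**Figure D2:**
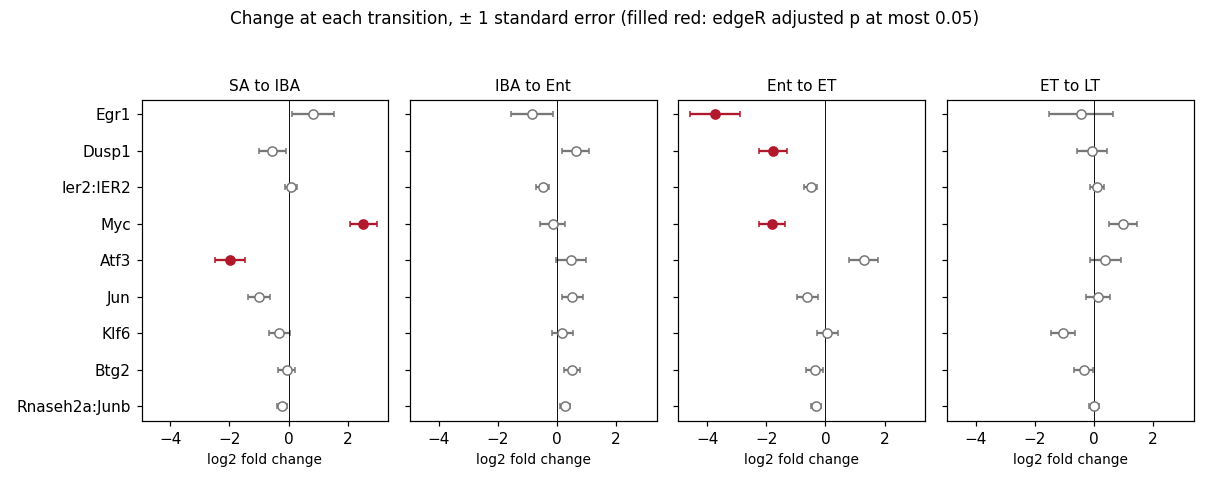
Log2 fold change with its standard error (x axis) for each member unit (rows) in the steps SA to IBA, IBA to Ent, Ent to ET and ET to LT, with filled red symbols at an edgeR adjusted p of at most 0.05. Filled symbols are Myc (2.53) and Atf3 (-1.98) from SA to IBA and Egr1 (-3.74), Dusp1 (-1.78) and Myc (-1.82) from Ent to ET, with none in the other 2 panels.

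The comparisons that skip a step gave similar numbers. From SA to Ent 1 of 7 rose (Myc) and 1 fell (Atf3), against 24.7% of all units called, 12.1% higher and 12.6% lower. From Ent to LT 1 of 7 rose (Atf3) and 2 fell (Egr1 and Dusp1), against 27.1% called, 13.5% higher and 13.7% lower. Between cold and warm animals 1 of 7 was higher (Atf3) and 2 were lower (Egr1 and Dusp1), against 65.1% of all units called, 30.1% higher and 35% lower. At the level of 0.001 Egr1 alone passed there, against 37% of all units, and no member passed in any other comparison. The share of all units past 0.001 was 0.0213% for IBA against SA, 0.0425% for Ent against IBA, 2.3% for ET against Ent, 0% for LT against ET, 17.6% for IBA against LT, 0.893% for Ent against SA and 2.38% for LT against Ent. Of the merged units, Ier2:IER2 was lower in the cold at both levels. Scaling to the uniquely mapped reads in place of TMM moved the median of all single-gene units between cold and warm from -0.07 to 0.16. It left Egr1 (-4.18) and Dusp1 (-1.23) lower and Atf3 (1.18) higher in the cold. Among all called units, the share that were higher moved from 46.2% to 61.5% in that comparison, from 51.3% to 74.1% from IBA to Ent, from 52.7% to 66.5% from Ent to ET, from 52.5% to 39.8% from LT to IBA, and from 48.8% to 70.1% from SA to Ent.

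The members are short genes, so levels between genes were compared per length, in CPM per kb of unit. All 7 single-gene members were shorter than the median unit of 36217 nt. On this scale Egr1 had 13.8 CPM per kb in IBA, at the percentile of 97.4 among single-gene units, against 92.8 in SA and 93.0 in Ent. It had 0.556 in ET and 0.422 in LT, at percentiles of 9.48 and 6.23. The highest level per length among the members was that of Dusp1 in SA, IBA and Ent and that of Btg2 in ET and LT. Dusp1 stayed at a percentile of 94.3 or more throughout, with 29.2 CPM per kb in Ent and 8.49 in ET. Myc moved from a percentile of 43.1 in SA (1.87 CPM per kb) to 96.0 in IBA (10.3 CPM per kb). Atf3 moved from 69.3 in SA (3.13 CPM per kb) to 10.1 in IBA (0.797 CPM per kb) and 73.8 in LT (3.49 CPM per kb).

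Animals of one state differed more in these genes than in most. The biological coefficient of variation, the relative SD between animals of a state that edgeR estimates per unit, had a median of 0.180 over all single-gene units and of 0.368 over the 7 members. It was 0.663 for Egr1, at the percentile of 99.6, 0.411 for Atf3, 0.381 for Dusp1 and 0.368 for Myc. The values for Jun (0.310) and Klf6 (0.308) were also above the 90th percentile, and that for Btg2 (0.249) was at 81.3. The merged units were nearer the median, with 0.196 for Ier2:IER2 and 0.153 for Rnaseh2a:Junb. These values come from the same fit as the tests above. Units were not matched for length or count level, and no such values are given for related genes. A wide spread is therefore not shown to be particular to these members.

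**Figure D3:**
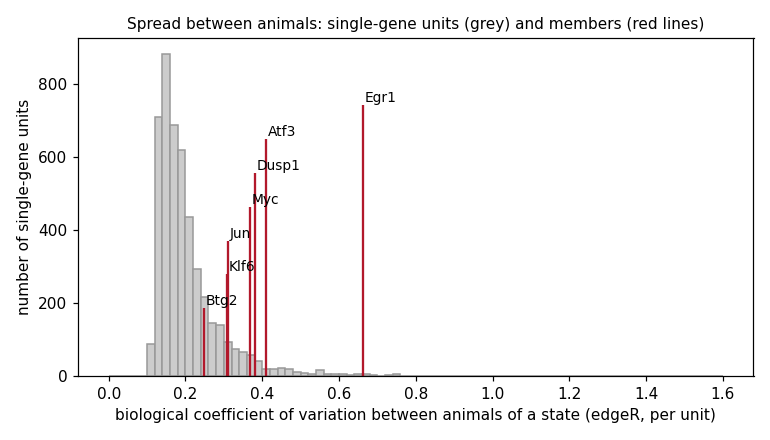
Histogram of the biological coefficient of variation between animals of a state (x axis, no unit) over 4705 single-gene units (y axis, number of units), with the 7 single-gene members marked by red lines whose height has no meaning. The median of all units is 0.180, and the 7 single-gene members lie between 0.249 and 0.663.

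Part of this spread lay within SA. The level in SA replicate 1 was more than 2-fold below that in both other SA libraries in Egr1, Jun and Atf3, which are 3 of the 7 members, against 1.02% of all single-gene units. The same was true of SA replicate 2 in 0 of the 7 members and 2.91% of all units. Among the 28 other immediate early genes described below, SA replicate 1 was low in this way in 0, SA replicate 2 in 4 (Gadd45a, Id2, Klf10 and Bcl6) and SA replicate 3 in 1 (Sgk1). These shares were counted after SA replicate 1 was seen to stand low, so they are a description and not a test. Other states were not examined in this way. SA replicate 1 was of the first collection season and the other 2 SA animals of the third. This split, too, was noticed after the values had been seen.

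The nearest unit upstream on the same strand was examined for each member. Upstream of Egr1, at 17.8 kb, lies the merged unit Reep2:Kdm3b:Fam53c, which was higher in the cold (log2 fold change 0.62, SE 0.08, edgeR adjusted p = 3.19e-05) where Egr1 was lower. The unit 20.3 kb upstream of Dusp1, G1622:G1624, was lower in the cold (-1.56, SE 0.33, edgeR adjusted p = 0.00111), as Dusp1 was. Nfix, a nuclear factor I gene 39.1 kb upstream of Ier2:IER2, was lower too (-1.005, SE 0.16, edgeR adjusted p = 0.000142). For Asna1, 31.3 kb upstream of Rnaseh2a:Junb, no difference was detected (0.02, SE 0.17, edgeR adjusted p = 0.926). The part of reads running on from these neighbours was not tested. The nearest same-strand units upstream of Atf3, Btg2, Jun, Myc and Klf6 were at 116 kb or farther.

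For each of the 4 members that differed among the states, the other single-gene units with the most similar course were sought by Pearson's r of log2 CPM over the 14 libraries. These values describe single libraries that share their states, and are given without a test. For Egr1 they were the unannotated unit G14428 (r = 0.937) and Asxl1 (r = 0.912), a Polycomb-associated chromatin regulator. G14428 averaged 38.4 CPM in IBA and 3.44 CPM in ET. For Dusp1 they were Gadd45g (r = 0.903), a growth arrest and stress gene, and Glul (r = 0.895), glutamine synthetase. For Myc they were the unannotated unit G22456 (r = 0.952), which averaged 12.0 CPM in SA and 70.5 CPM in IBA, and Trank1 (r = 0.909). For Atf3 they were Stk10 (r = 0.894) and Brd1 (r = 0.879), a bromodomain scaffold of histone acetyltransferases.

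Among the other immediate early genes the direction was also mixed. Of 60 listed symbols, which include older names, 28 had a single-gene unit, and 20 of these differed between cold and warm animals, near the 65.1% of all single-gene units. Of the 20, 7 were higher and 13 lower in the cold, and the median log2 fold change of the 28 was -0.66 against -0.07 over all single-gene units. With scaling to the uniquely mapped reads, 11 were higher and 11 lower, with a median of -0.44. Under that scaling 3068 of all 4705 single-gene units were called, 1888 of them higher. The 4 with the largest rise were Pim3 (log2 fold change 2.36, SE 0.28, edgeR adjusted p = 1.26e-05), Ppp1r15a (2.22, SE 0.24, edgeR adjusted p = 5.82e-06), Csrnp1 (1.88, SE 0.26, edgeR adjusted p = 3.96e-05) and Pim1 (1.70, SE 0.24, edgeR adjusted p = 4.64e-05). Pim1 and Pim3 encode serine/threonine kinases, Ppp1r15a the GADD34 subunit that directs protein phosphatase 1 to eIF2 alpha, and Csrnp1 a nuclear protein induced by axin. Ppp1r15a averaged 12.3 CPM in IBA, 76.9 in ET and 83.9 in LT.

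The 4 with the largest fall were Nr4a1 (log2 fold change -2.84, SE 0.38, edgeR adjusted p = 3.32e-05), Zfp36l2 (-2.82, SE 0.21, edgeR adjusted p = 5.01e-07), Zfp36l1 (-2.37, SE 0.21, edgeR adjusted p = 1.57e-06) and Gadd45g (-2.16, SE 0.37, edgeR adjusted p = 0.000256). Zfp36l1 and Zfp36l2 encode proteins that bind AU-rich elements and destabilize mRNA. Nr4a1, an orphan nuclear receptor induced by glucagon in the liver, had its highest levels in summer. It held 79.5, 44.8 and 170.5 CPM in the SA libraries and no more than 14.005 CPM in any other library, and it was lower in IBA than in SA (log2 fold change -3.05, edgeR adjusted p = 0.00377). Csrnp1 was the other gene of this list called in that step, also lower in IBA (-1.45, edgeR adjusted p = 0.0342).

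**Figure D4:**
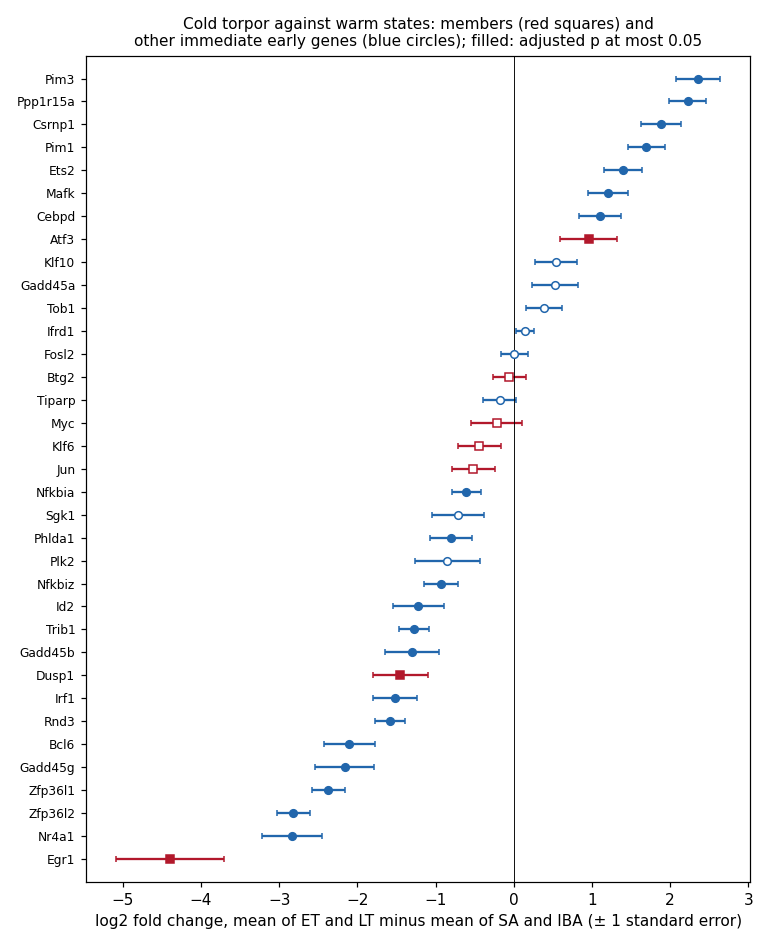
Log2 fold change between cold (mean of ET and LT) and warm (mean of SA and IBA) animals, with its standard error (x axis), for the 7 single-gene members (red squares) and the 28 other immediate early genes (blue circles), filled at an edgeR adjusted p of at most 0.05. Values run from -4.39 for Egr1 to 2.36 for Pim3.

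From Ent to ET 13 of the 28 other immediate early genes were called, against 29.2% of all units (15.4% higher, 13.8% lower). Of these, 3 rose, Csrnp1 (2.25), Ppp1r15a (1.55) and Pim3 (1.45), and 10 fell. The split was 6 higher and 7 lower with scaling to mapped reads, where 1428 of 4705 units were called, 949 of them higher. From IBA to Ent 5 of the 28 were called, Ppp1r15a, Ets2, Tob1 and Pim1 higher and Rnd3 lower, near the 16.7% of all units called in that step. From LT to IBA 8 rose and 7 fell, against 50.7% of all units called. With scaling to mapped reads 7 rose and 8 fell, where 2387 of 4705 units were called, 949 of them higher.

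The kinases and phosphatases of the pathway were examined next. Of 8 dual-specificity phosphatases other than Dusp1, 6 differed between cold and warm, 5 of them lower, with a median of -0.89 over the 8. In this comparison 65.1% of all units were called, 30.1% higher and 35% lower. Dusp6, which inactivates ERK, was lower in the cold (log2 fold change -2.92, SE 0.22, edgeR adjusted p = 5.01e-07), with means of 116 CPM in SA, 176 CPM in IBA, 17.0 CPM in ET and 20.9 CPM in LT. Dusp10, which acts on JNK and p38, had -1.74 (SE 0.28, edgeR adjusted p = 0.000158). Dusp3 was the exception, at 0.46 (SE 0.13, edgeR adjusted p = 0.00586). Of 18 MAP kinase cascade kinases, 10 were called, near the share of all units, 5 higher and 5 lower, with a median of -0.21. With scaling to mapped reads 8 were higher and 3 lower, where 3068 of 4705 units were called, 1888 of them higher. The calls of Map2k5 (0.0062, edgeR adjusted p = 0.962) and Mapk14 (-0.37, edgeR adjusted p = 0.0574) were lost under that scaling. The largest values were 0.96 for Mapkapk5, 0.91 for Mapk6, which encodes ERK3, and -1.46 for Map2k2 (SE 0.20, edgeR adjusted p = 4.11e-05), which encodes MEK2.

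Of 6 upstream factors and cofactors of the SRF, CREB and EGR kind, 3 were lower in the cold, against 35% of all units. They were the ternary complex factor Elk3 (-1.16, SE 0.19, edgeR adjusted p = 0.000158) and the CREB coactivators Crtc1 (-0.52, SE 0.22, edgeR adjusted p = 0.0496) and Crtc3. With scaling to mapped reads the split turned to 2 higher and 1 lower, where 3068 of 4705 units were called, 1888 of them higher. The calls of Crtc1 and Crtc3 were lost, and Ep300 (0.42, edgeR adjusted p = 0.00131) and Srf (0.60, edgeR adjusted p = 0.0327) were called higher. Of 9 other AP-1 and CREB/ATF bZIP genes, 2 were higher and 5 lower, against 30.1% and 35% of all units. The 2 that rose, Atf5 (2.18, SE 0.17, edgeR adjusted p = 5.86e-07) and Ddit3 (1.23, SE 0.13, edgeR adjusted p = 4.99e-06), encode bZIP factors induced in cell stress, the latter known as CHOP. The mean level of Atf5 was 214 CPM in IBA, 678 CPM in Ent and 802 CPM in ET. Xbp1, a factor of the unfolded protein response, was lower in the cold (-1.92, SE 0.27, edgeR adjusted p = 4.41e-05). Calls for Atf7, Nfe2l1 and Nfe2l2 were lost with scaling to mapped reads.

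The relatives of Myc, Klf6 and Btg2 were examined last. Between cold and warm, the 3 units of the MYC and MLX network had log2 fold changes of 0.37 for Max, the dimer partner of Myc (edgeR adjusted p = 0.0583), 0.098 for Mxi1 (edgeR adjusted p = 0.715) and -0.046 for Mlxip (edgeR adjusted p = 0.745). From Ent to ET, where Myc fell, Max rose by 0.65 (edgeR adjusted p = 0.0393). Of 7 other KLF genes, Klf11 (1.06) and Klf9 (0.77) were higher and Klf7 (-1.53) was lower in the cold, where 65.1% of all units were called. Of 2 other BTG/TOB genes, Tob2 was higher (0.35). With scaling to mapped reads, 1 unit of the MYC and MLX network and 2 BTG/TOB genes were higher. Of the KLF genes, 4 were higher and 1, Klf7, was lower (-1.30, edgeR adjusted p = 4.25e-05). Under that scaling 3068 of all 4705 single-gene units were called, 1888 of them higher. Some genes, such as Klf10 and Tob1, stand in 2 of these lists.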

How the data were processed

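GRO-seq libraries of 14 livers were analysed. Per the sources used here, the authors trimmed reads with cutadapt, aligned them to HiC_Itri_2 with BWA, redefined gene bodies with fstitch, removed the first 500 nt, merged overlapping genes and counted reads with featureCounts. Versions and the strand setting are not given in the sources used here, so reads of a gene and of an antisense partner might not be separated. The deposited file holds raw counts for each unit and library, not normalized by the authors.

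Counts of all 6324 units were scaled by TMM and fitted for 5 states with edgeR 4.0.16 (glmQLFit, glmQLFTest) in R 4.3.3, without a filter on low counts. P-values were adjusted over all units (Benjamini-Hochberg). The test behind them weighs a difference between states against the spread between animals. The call level was 0.05, and 0.001, which the study used, was an alternative. Log2 CPM used a prior count of 2. Members and lists were chosen with earlier results of these data known. Named genes were all members, the 2 single-gene units most correlated with each member called among the states, and from each related list up to 2 called units with the largest rise and up to 2 with the largest fall between cold and warm (up to 4 of each for other immediate early genes). Genes called in other steps were named after their values were seen. Cold minus warm is the mean of ET and LT minus the mean of SA and IBA.

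Alternatives were limma-voom (limma 3.58.1), DESeq2 1.42.0, upper-quartile, relative log expression, total-count and mapped-read scaling, at least 10 counts in every library, single-gene units alone, the compared groups alone, a 2-fold minimum, a replicate block, season as a covariate, a single season, and each library left out. Season as a covariate and a single season were run only in comparisons without ET. The list counts at 0.001 and with mapped-read scaling were added after seeing the data. Scripts were tested on simulated data. Figures and descriptions used Python 3.11.15. The season and mapped reads of each animal come from the study's sample table.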

Additional observations from a re-analysis of the deposited data

How the results depend on the processing

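No member changed sign under an alternative while past the threshold. Of 1767 values of single units under alternatives, 1638 kept their direction and side of the threshold, 54 changed sign without a call, 50 lost and 25 gained a call. The number of members called fell at 0.001 from 4 to 0 among the 5 states, from 2 to 0 in SA to IBA, SA to Ent and LT to IBA, from 3 to 0 in Ent to ET and Ent to LT, and from 3 to 1 between cold and warm. The counts of members under alternatives that follow stand without the share of all units called under the same alternative. They are therefore not a result about the members. In SA to IBA, 1 member was called by limma-voom, with a replicate block and within one season, and 0 with the compared groups alone. In SA to Ent, 1 was called by limma-voom, with the compared groups alone, with a replicate block and with season as a covariate. In LT to IBA, 4 were called with the compared groups alone, and 1 with at least 10 counts in every library, a filter that removes Egr1. In IBA to Ent, 1 was called with the compared groups alone (Btg2). In Ent to LT, 5 were called with the compared groups alone and within one season. With single libraries left out, members called ran from 4 to 5 among the 5 states, 1 to 3 in SA to IBA, 0 to 0 in IBA to Ent, 2 to 4 in Ent to ET, 0 to 0 in ET to LT, 2 to 3 in LT to IBA, 1 to 2 in SA to Ent, 0 to 4 in Ent to LT and 2 to 4 between cold and warm. Where not given with the results, the cause of these changes was not tested. With limma-voom, Egr1 missed the threshold from Ent to ET (limma adjusted p = 0.0755) and from Ent to LT (limma adjusted p = 0.0685), and Myc from SA to IBA missed it with the compared groups alone (edgeR adjusted p = 0.0683).

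Replicate numbers did not mark pairs. Of 26 pairs of libraries with the same number in different states, 6 had a correlation of their deviations from the state means above 0.1 (range -0.273 to 0.265), and 5 of 14 libraries correlated best with one of their own number. The replicate block moved the counts given above, and Atf3 between cold and warm had an edgeR adjusted p of 0.0541 with it.

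Depth limits Egr1 in torpor, where libraries held 2 to 30 counts, and 2 LT libraries leave the spread in LT poorly known.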
